A study of Mus musculus with 8 samples.

Results

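The netrin family of mouse ventricles at E14.5 was examined as 6 genes, the ligand genes Ntn1 and Ntn4 and the receptor genes Unc5a, Unc5b, Unc5c and Neo1, out of 13869 genes in the deposited table. They were chosen on the measured difference between mutant and wild-type libraries, which was already known when the family was named, and all 6 were present and passed the filter on low values. The mutant group was 4 libraries of Mib1flox; TnT-Cre ventricles, in which Cre under the cardiac troponin T promoter deletes Mib1 in cardiomyocytes and other cells keep their alleles. The wild-type group was 4 libraries from siblings with the genotype WT. The series description states that ventricles of 16 hearts of each genotype made up 4 pools, and each library is such a pool. The litters behind each pool are not named in these sources, and p-values therefore measure only the spread between these pools, which may be partly technical.

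Netrins are secreted proteins related to laminins that were first studied as guidance cues of growing axons. Netrin 1 attracts cells through DCC and neogenin and repels them through receptors of the UNC5 family, and UNC5B is also a receptor of the vascular endothelium, where netrin signalling shapes vessel branching. UNC5 receptors carry an intracellular death domain and can trigger cell death when no ligand is bound. Mib1, a ubiquitin ligase gene, is needed by Notch ligands in the cell that sends the signal.

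In Mib1 mutant ventricles the netrin 1 gene was lower and the receptor gene Unc5b was higher, so that the ratio of ligand to receptor transcripts was lower in every mutant library than in any wild-type library. Ntn1 averaged 187 ± 7.56 CPM (counts scaled to a normalized library of 1000000) in mutants and 245 ± 16.4 CPM in wild type (SD, n = 4 each), and Unc5b averaged 240.3 ± 24.9 CPM in mutants and 187 ± 12.2 CPM in wild type. The other netrin gene, Ntn4, stood higher in every mutant library than in any wild-type library, as did Neo1 by a small margin, whereas Unc5a and Unc5c overlapped between the groups. Because the members were chosen with this contrast known, their differences are a description, and no p-value is attached to them. Each difference is the log2 of mutant over wild type from a limma fit over all 13740 genes tested, with its standard error (SE), and a gene is called where the Benjamini-Hochberg adjusted p of that fit is under 0.05.

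By that rule 2 of the 6 members were called, beside 2.24% of all genes tested: 1 lower, beside 1.25%, and 1 higher, beside 0.99%. Mutant and wild-type libraries did not overlap for 4 members, beside 8.89% of all genes tested: 1 lower, beside 4.63%, and 3 higher, beside 4.26%. These counts follow from how the members were chosen and are read no further.

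The recovered totals ran from 6597943 to 11506082 counts in mutant libraries and from 6307634 to 8964058 in wild-type libraries, and 3 counts, taken as the floor, corresponded to 0.265 to 0.472 CPM for counting error only. Mib1 itself stood at 106, 103, 95.3 and 96.3 CPM in the mutants and at 150.3, 166, 160.5 and 167 CPM in wild type. The summed level of 8 cardiomyocyte genes was 37312 to 40044 CPM in mutants and 38953 to 43048 CPM in wild type. Mutant replicate 1 was the deepest library, and its chi-square per gene against the other mutants was 5.04 to 9.43. The other mutant pairs gave 3.22 to 4.99 and the wild-type pairs 1.96 to 4.16. This chi-square was computed on counts and can grow with depth, so it does not show by itself that the library differed. The highest mutant pair, replicates 1 and 3, had 11506082 and 6597943 counts and gave 9.43. The highest wild-type pair, replicates 2 and 4, had 8964058 and 8289154 counts and gave 4.16. Why the pairs differed was not tested. Ventricles hold several cell types, and in such bulk libraries fewer cells of a type and less RNA per cell cannot be told apart.

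Ntn1 (ENSMUSG00000020902) encodes netrin 1, the ligand that DCC, neogenin and the UNC5 receptors share. Its level was 181, 192, 181 and 195 CPM in the mutant libraries, from 1207 to 2053 counts. In the wild-type libraries it was 247, 267, 236 and 230.0 CPM, from 1496 to 2406 counts. All 4 mutant libraries lay below all 4 wild-type libraries, with a gap between 195 CPM in the highest mutant and 230.0 CPM in the lowest wild-type library. The log2 difference was −0.39 ± 0.06 (SE), which was 1.31-fold lower in mutants, and Ntn1 was called lower. The SD was 4.04% of the mean in mutants and 6.69% in wild type, where the libraries spanned 230.0 to 267 CPM, a wider interval than the gap.

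Ntn4 (ENSMUSG00000020019) encodes netrin 4, a netrin of basement membranes that binds the laminin gamma 1 chain. It stood at 28.5, 33.2, 30.1 and 33.3 CPM in mutants, against 25.5, 25.5, 27.1 and 22.7 CPM in wild type. The groups did not overlap, although mutant replicate 1 and wild-type replicate 3 differed by little, at 28.5 and 27.1 CPM from 323 and 172 counts. The log2 difference was 0.31 ± 0.08 (SE) and did not reach the call. Without mutant replicate 1 it was 0.35 and Ntn4 was called. Per kilobase of transcript, Ntn1 and Ntn4 summed to 45.0 to 49.8 CPM per kilobase in mutants and 50.8 to 58.6 in wild type, and the share of Ntn1 in that sum was 68.0% to 70.1% in mutants and 76.2% to 79.4% in wild type. With the longest transcript as the length, the share was 78.2% to 79.8% in mutants and 84.4% to 86.7% in wild type.

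**Figure D1:**
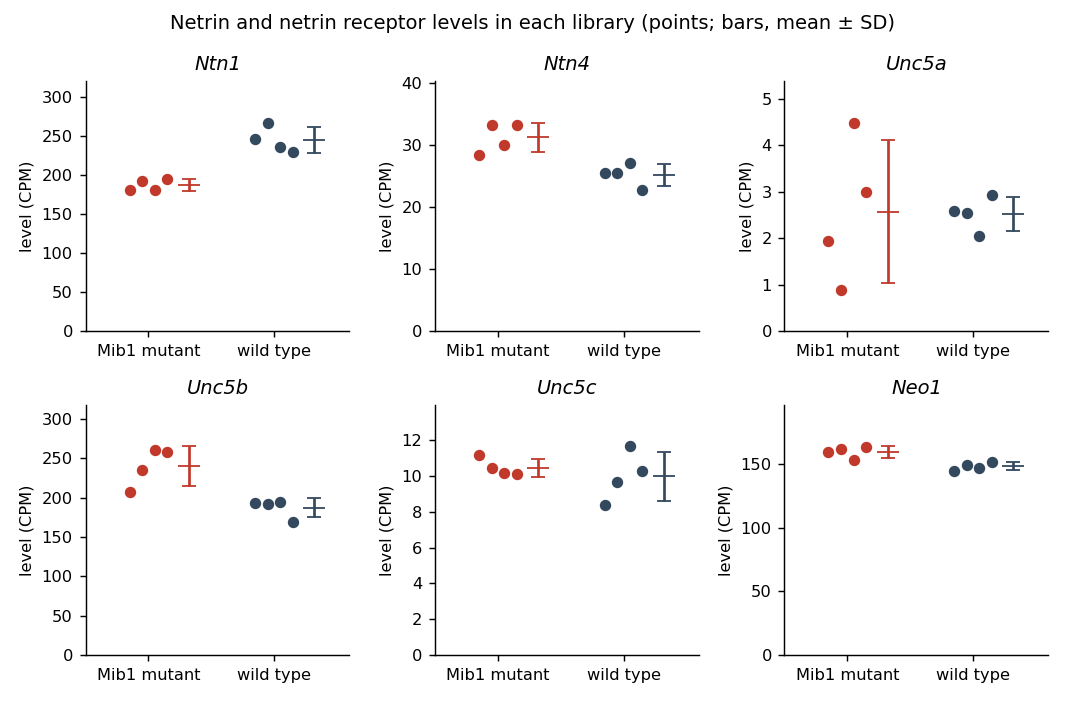
Level in CPM (y axis, from 0, a scale of its own in each panel) of each netrin and receptor gene in the 4 Mib1 mutant and 4 wild-type libraries, with bars for the mean and SD of each group. The groups separate for Ntn1, Ntn4, Unc5b and Neo1, and overlap for Unc5a and Unc5c.

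Unc5b (ENSMUSG00000020099) encodes the UNC5 receptor of vascular endothelium. The mutant libraries gave 207, 236, 260.4 and 258 CPM from 1740 to 2347 counts, and the wild-type libraries 193, 191, 194 and 169 CPM from 1234 to 1725 counts. No mutant library overlapped a wild-type library, and the nearest were mutant replicate 1 at 207 CPM and wild-type replicate 3 at 194 CPM. The log2 difference was 0.36 ± 0.07 (SE), or 1.28-fold higher in mutants, and Unc5b was called higher. The call was lost in 5 of 8 fits with 1 library left out, those without mutant replicate 2 or 4 or without wild-type replicate 1, 2 or 4. Over all 8 fits the difference was between 0.31 and 0.43, and the highest value, without mutant replicate 1, kept the call.

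Unc5a (ENSMUSG00000025876) and Unc5c (ENSMUSG00000059921) encode the other UNC5 receptors in the table, known mainly from neurons. Unc5c stood at 11.2, 10.4, 10.2 and 10.1 CPM in mutants and at 8.36, 9.66, 11.7 and 10.3 CPM in wild type, with a log2 difference of 0.08 ± 0.12 (SE). The wild-type range enclosed the mutant range. Unc5a gave 1.94, 0.891, 4.49 and 2.99 CPM in mutants, against 2.59, 2.55, 2.05 and 2.93 CPM in wild type, from 7 to 30 counts per library. Its log2 difference of −0.19 ± 0.38 (SE) and the means of 2.58 ± 1.54 CPM in mutants and 2.53 ± 0.366 CPM in wild type pointed opposite ways. The SD was 59.6% of the mean in mutants and 14.4% in wild type, and no difference of Unc5a was detectable in these libraries. Over 34 bases the exons of Unc5a overlap those of Hk3 on the opposite strand in the annotation, and those of Unc5c overlap an antisense gene over 118 bases; no source used here says whether the counting used strand. Summed per kilobase over Unc5a, Unc5b and Unc5c, the level was 47.2 to 59.3 CPM per kilobase in mutants and 39.4 to 44.7 in wild type, and Unc5b held 92.0% to 94.1% of it in mutants and 89.9% to 92.4% in wild type.

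Neo1 (ENSMUSG00000032340) encodes neogenin, a relative of DCC that binds netrins and the repulsive guidance molecules, which are also BMP co-receptors. It varied least among the members, at 159, 162, 153 and 164 CPM in mutants and 145, 149.6, 147 and 152 CPM in wild type. The groups were separated by a narrow gap, with 153 CPM in the lowest mutant and 152 CPM in the highest wild-type library. The log2 difference of 0.10 ± 0.05 (SE) was not called. Dcc, the classical netrin receptor gene and no member, was present at 3.82 to 4.41 CPM in mutants and 2.45 to 3.31 CPM in wild type, without a call (0.55 ± 0.18, SE; limma adjusted p = 0.158).

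Levels of different genes were compared per kilobase of transcript, taking the median length of the protein-coding transcripts of each gene. In mutants Unc5b led with 50.5 ± 5.22 CPM per kilobase, followed by Ntn1 with 32.6 ± 1.32, Neo1 with 29.4 ± 0.840, Ntn4 with 14.8 ± 1.12, Unc5c with 2.69 ± 0.130 and Unc5a with 1.17 ± 0.695 (SD, n = 4). In wild type Ntn1 led with 42.7 ± 2.85 CPM per kilobase, followed by Unc5b with 39.3 ± 2.56, Neo1 with 27.4 ± 0.580, Ntn4 with 11.9 ± 0.856, Unc5c with 2.57 ± 0.352 and Unc5a with 1.15 ± 0.165 (SD, n = 4). Ntn1 and Unc5b overlapped in wild type, where their libraries spanned 40.1 to 46.5 and 35.4 to 40.8 CPM per kilobase. In the mutants the libraries of Unc5b (43.5 to 54.7) lay above those of Ntn1 (31.5 to 34.1), and those of Ntn1 above those of Neo1 (28.3 to 30.2). Over all 8 libraries 81.4% of the 13314 tested genes with a length stood below Unc5b, 78.1% below Ntn1, 72.0% below Neo1, 51.8% below Ntn4, 17.5% below Unc5c and 8.54% below Unc5a. With the longest transcript as the length, Ntn1 and Unc5b changed places at the top, at 36.8 and 36.4 CPM per kilobase over 8 libraries. By that length the levels of the low genes were over 1.5 times lower, at 7.74 instead of 13.4 for Ntn4, 1.06 instead of 2.63 for Unc5c and 0.640 for Unc5a, and the order below the top pair was the same.

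**Figure D2:**
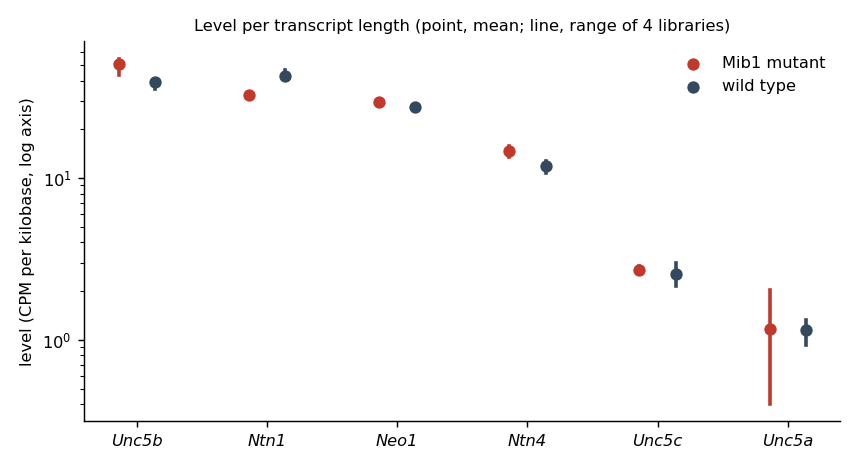
Level per kilobase of transcript (y axis, log scale) of the 6 genes in order of their mean over 8 libraries, with a point for the group mean and a line for the range of 4 libraries. Unc5b, Ntn1 and Neo1 stand above Ntn4, and Unc5c and Unc5a lie lowest in both groups.

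The ligand was then set against the main UNC5 receptor within each library, a ratio that does not depend on scaling between libraries. The CPM of Ntn1 divided by the CPM of Unc5b was 0.875, 0.814, 0.694 and 0.757 in the mutants. It was 1.28, 1.39, 1.21 and 1.36 in wild type. On the log2 scale the ratio averaged −0.35 ± 0.14 in mutants and 0.39 ± 0.09 in wild type (SD, n = 4 each), a difference of −0.74. The mutant ratios all lay below the wild-type ratios. Since the 2 transcripts differ in length, the ratio is compared between libraries and not read as which gene had more transcripts. Leaving out any 1 library gave differences of the ratio between −0.80 and −0.69. Since Ntn1 and Unc5b were both chosen for this contrast, the ratio is a description and was not tested.

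**Figure D3:**
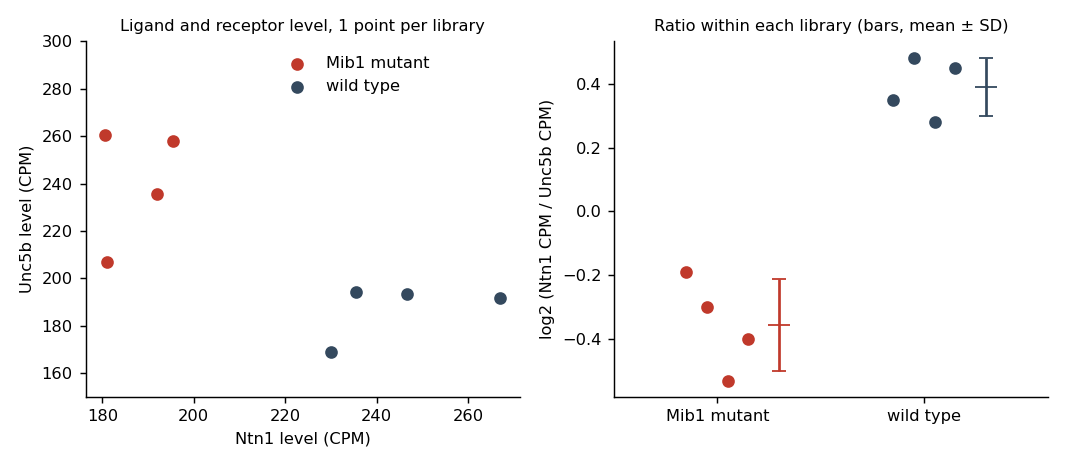
Left, Unc5b level against Ntn1 level in CPM, 1 point per library; right, log2 of the Ntn1 over Unc5b ratio per library with the mean and SD of each group. The mutant libraries lie at −0.53 to −0.19 and the wild-type libraries at 0.28 to 0.48.

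Promoter windows were read for the members so that Unc5b and Ntn4, the receptor and the ligand with the largest positive differences, could be seen side by side in sequence. The RefSeq table (GRCm38.p6, from 250 bases before to 50 after the start) had a window for 5 of the 6 members: Ntn4, Unc5a, Unc5b, Unc5c and Neo1. Searched on both strands were GGGCGG, the GC box bound by Sp1-type factors, and TGGGAA, the core of the RBPJ motif, RBPJ being the DNA-binding partner of the cleaved Notch receptor. The windows of Unc5b (chr10:60831532-60831831, minus strand) and Ntn4 (chr10:93640799-93641098, plus strand) are given 5′ to 3′, with matches of either motif on either strand in capitals.
Unc5b: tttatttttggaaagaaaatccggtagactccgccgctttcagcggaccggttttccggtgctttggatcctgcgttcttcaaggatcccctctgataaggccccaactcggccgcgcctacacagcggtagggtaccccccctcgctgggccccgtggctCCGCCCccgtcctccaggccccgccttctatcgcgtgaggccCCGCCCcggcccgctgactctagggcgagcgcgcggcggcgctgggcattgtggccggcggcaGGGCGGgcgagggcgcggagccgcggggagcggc
Ntn4: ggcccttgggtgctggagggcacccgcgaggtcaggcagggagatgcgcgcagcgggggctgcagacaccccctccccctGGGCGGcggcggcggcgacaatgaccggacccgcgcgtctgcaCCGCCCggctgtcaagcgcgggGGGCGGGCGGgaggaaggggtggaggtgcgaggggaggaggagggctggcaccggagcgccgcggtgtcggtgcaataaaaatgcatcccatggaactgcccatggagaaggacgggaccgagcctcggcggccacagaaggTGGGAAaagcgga
The Unc5b window held 3 matches of GGGCGG and 0 of TGGGAA. The Ntn4 window held 4 matches of GGGCGG, of which 2 overlap each other, and 1 of TGGGAA. The TGGGAA of Ntn4 began 37 bases after the start. Unc5a held 5 GC boxes, Neo1 2 and Unc5c 0, and none of these had TGGGAA. For comparison, 35.7% of all 32851 windows held GGGCGG and 25.6% held TGGGAA. All 5 windows were rich in G and C, from 68.3% in Unc5c to 82.7% in Neo1, with 69.7% in Unc5b and 72.0% in Ntn4, where the median window had 52.7%. Unc5c, with the fewest CpG dinucleotides of the 5, had 24 and Neo1 the most with 54, against a median of 7. A match is a string of letters and not a binding site, and its absence says nothing about other positions of the gene.

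The rest of the pathway was described from lists written from general knowledge, with earlier results of these data known. Outside the members, 50 genes were tested in limma. Among them 0 were called higher, beside 0.99% of all genes tested, and 2 lower, beside 1.25%. The called share was 4.0%, beside 2.24% of all genes tested. Their median log2 difference was 0.02 beside 0.00 over all genes. Of these 50, 9 had an unadjusted p under 0.05, beside 2033 of all 13740 genes, which is near the same share, and 1 was called higher with array weights and 0 with voom weights. Of the 6 netrin genes listed, the table held only Ntn1 and Ntn4. Of 12 receptors listed, 9 were tested, and besides Unc5b the integrin gene Itga6 was called. Itga6 encodes integrin alpha 6, a laminin receptor that netrins have been reported to engage, and stood at 194, 193, 178 and 183 CPM in mutants against 226, 224, 228 and 238 CPM in wild type. The mutants lay wholly below wild type, by a log2 difference of −0.29 ± 0.05 (SE; limma adjusted p = 0.00432). Mcam, a netrin receptor reported on endothelium, was at −0.02 ± 0.05 (SE).

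Among 8 tested genes of other ligands and partners of neogenin and the UNC5 receptors, Adgrl3 alone was called. Of all genes tested 2.24% were called. Adgrl3 encodes latrophilin 3, which with an FLRT protein and an UNC5 receptor forms an adhesion complex, and stood at 9.28 to 10.7 CPM in mutants against 13.2 to 16.7 CPM in wild type. All mutant libraries were below all wild-type libraries (−0.55 ± 0.11, SE; limma adjusted p = 0.0192), and the call was lost without mutant replicate 2, wild-type replicate 2 or wild-type replicate 3, at limma adjusted p up to 0.0728. The UNC5-binding FLRT genes were not called: Flrt3 stood at 25.8 to 31.1 CPM in mutants and 21.5 to 25.5 CPM in wild type (0.29 ± 0.09, SE), and Flrt2 at 124 to 144 CPM in mutants and 106 to 129 CPM in wild type (0.19 ± 0.07, SE). The neogenin ligand genes Rgma and Rgmb were at 0.22 ± 0.18 and −0.09 ± 0.09 (SE).

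Of the 24 tested genes of intracellular partners, 0 were called in limma, beside 2.24% of all genes tested. With array weights 1 was called (Ablim1) and with voom weights 0. An unadjusted p under 0.05 in limma was found for 3, no larger a share than over all genes. In log2 difference 20 of the 24 lay above 0, beside 6907 of all 13740 genes, with a median of 0.05. The smallest p was that of Ablim1, an actin-binding gene linked to netrin responses in axons (0.18 ± 0.05, SE; limma adjusted p = 0.113). Dapk1, the death-associated kinase that UNC5B signals through, was at 0.02 ± 0.07, and Maged1, which encodes a partner of UNC5A, at −0.07 ± 0.05 (SE). Of the 14 genes of the laminin network that netrin 4 belongs to, Itga6 was the 1 called, beside 2.24% of all genes tested. The median of the 14 was −0.02. Lamc1, the laminin chain that netrin 4 binds, stood at −0.09 ± 0.05 (SE).

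**Figure D4:**
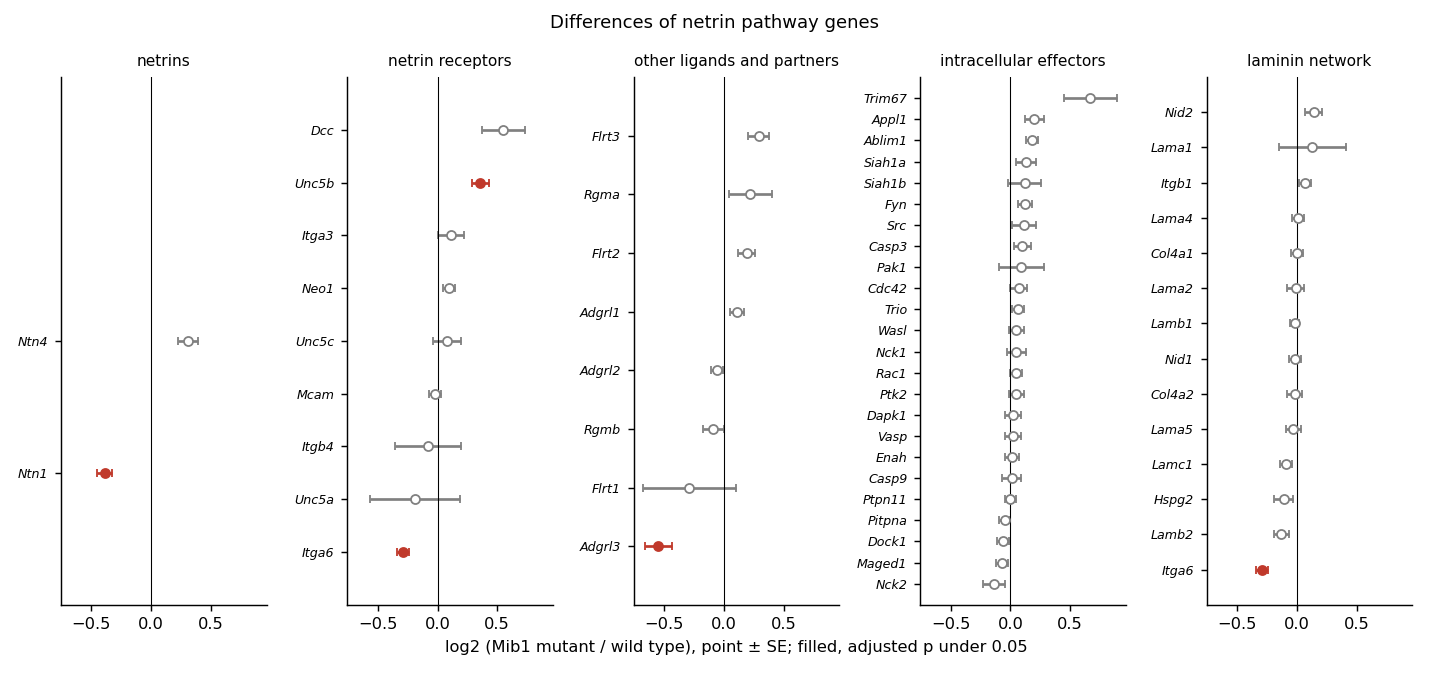
Log2 of mutant over wild type with its SE (x axis) for each tested gene of 5 lists, filled where the adjusted p over all genes was under 0.05. Filled points are Ntn1, Itga6 and Adgrl3 to the left of 0 and Unc5b to the right, with Itga6 shown in both lists that hold it.

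Markers of cell types that could carry these transcripts differed between the same libraries. Of all 13740 genes tested, 0.99% were called higher, 1.25% were called lower and 6833 lay below 0. All 10 endothelial markers lay below 0 and 3 were called lower (Tek, Egfl7 and Ramp2), with a summed level of 1026 to 1069 CPM in mutants and 1180 to 1218 CPM in wild type. Of 9 coronary and arterial markers, listed without Unc5b, 8 lay below 0 and 3 were called lower (Hey1, Aplnr and Cd36), and the sum was 436 to 467 CPM in mutants and 521 to 578 CPM in wild type. Between the groups Unc5b and these sums ran opposite ways. Among the 4 mutants, replicates 1 to 4, markers of these lists did not share 1 pattern with Unc5b (207, 236, 260.4 and 258 CPM). Tie1 (106, 125, 145 and 136 CPM), Gja4 (15.1, 16.9, 21.2 and 18.7 CPM) and Dll4 (22.7, 26.0, 33.2 and 28.3 CPM) varied together with it. Ramp2 (46.8, 48.5, 52.1 and 52.8 CPM) and Erg (25.5, 26.8, 27.4 and 27.9 CPM) did so too. Cldn5 (9.26, 13.6, 15.1 and 12.6 CPM) and Egfl7 (47.0, 47.3, 57.6 and 51.2 CPM) were also lowest in replicate 1. Tek (113, 115, 103 and 104 CPM) was lower in replicates 3 and 4. Cd36 (209, 194, 149 and 178 CPM) and Emcn (77.2, 63.2, 58.4 and 58.7 CPM) varied opposite to it. Pecam1 (166, 184, 170 and 185 CPM) and Kdr (170, 182, 167 and 164 CPM) did neither. Wild-type replicate 4, the lowest wild-type library for Unc5b, was also the lowest wild-type library for Tie1, Gja4, Dll4 and Egfl7. It was the highest wild-type library for Hey1 (22.5 CPM) and Cxcr4 (16.1 CPM). For Pecam1, Cdh5 and Tek it lay within the range of the other wild-type libraries. Among the mutants, genes of other lists varied as well. Nkx2-5 (57.8, 75.4, 101 and 91.8 CPM) varied with Unc5b, and Tbx20 (450, 419, 383 and 405 CPM) opposite to it. These markers were picked after their values were seen. Pericyte and smooth muscle markers had a sum of 1542 to 1629 CPM in mutants and 1289 to 1461 CPM in wild type, 1 called higher (Acta2) and 1 lower (Abcc9) of 8. Acta2 carried that sum, since the 7 other genes, an alternative chosen after seeing the data, summed to 504 to 527 CPM in mutants and 520.2 to 548 CPM in wild type, and 4 of the 8 lay below 0.

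Of 6 compact myocardium markers, listed without Ntn1, 3 were called higher (Hey2, Tbx20 and Fzd2), beside 0.99% of all genes tested. The compact sum was 1112 to 1232 CPM in mutants and 1021 to 1052 CPM in wild type. Of 6 trabecular markers 5 were called lower (Nppa, Bmp10, Gja5, Cited1 and Sema3a), beside 1.25% of all genes tested. The trabecular sum was 487 to 582 CPM in mutants and 1434 to 1522 CPM in wild type. In the mutants Ntn1 was lower than in wild type. The mean sums of the trabecular, endothelial, coronary, macrophage, erythroid, cardiomyocyte, atrial, fibroblast and neural lists were lower too. Those of the compact, epicardial, and pericyte and smooth muscle lists were higher, although Ccnd2 of the compact list was at −0.16. Mutant and wild-type libraries overlapped for the sums of the erythroid, cardiomyocyte, atrial, fibroblast, neural and epicardial lists. The macrophage sum was 50.2 to 61.1 CPM in mutants and 80.5 to 95.4 CPM in wild type, with 3 of 7 called lower (Lyz2, Tyrobp and C1qc). That of 8 erythroid genes was 1853 to 3086 CPM in mutants and 2881 to 3947 CPM in wild type, with Hba-a1 and Ank1 called lower. Of the remaining lists, 1 of 6 fibroblast markers (Fbln1) was called lower, 0 of 7 epicardial, 0 of 4 tested neural and 0 of 8 cardiomyocyte markers were called (2, 1 and 3 had an unadjusted p under 0.05 in limma, and 0, 0 and 2 were called with voom weights and 0, 0 and 1 with array weights), and of 6 atrial markers Myl7 was called higher and Kcnj3 lower. Of the 24 marker calls, 10 were lost in 2 to 7 of the 8 fits with 1 library left out, those of Hey2, Fzd2, Myl7, Tek, Egfl7, Hey1, Cd36, Abcc9, C1qc and Hba-a1. The part of any of these cell types in the differences of Ntn1, Unc5b and Ntn4 was not tested.

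The genes whose library profiles were most like those of Ntn1 and Unc5b were found among 10762 tested genes by the root mean square distance of log2 CPM, relative to the wild-type mean, over 8 libraries. Nearest to Ntn1 were Acsl1, a fatty acid activating enzyme gene (distance 0.058), Mmp28, a metalloproteinase gene (0.061), Gyg, the glycogenin gene that primes glycogen synthesis (0.063), Hid1 (0.074) and Epas1, which encodes the hypoxia-inducible factor HIF2 alpha (0.079). Gyg stood at 647 to 696 CPM in mutants and 821 to 898 CPM in wild type. Epas1 was at 54.9 to 63.5 CPM in mutants and 72.9 to 86.0 CPM in wild type. Nearest to Unc5b were Sbk1, a kinase gene (0.035), Mn1, a transcriptional regulator gene (0.043), Csrp2, a LIM domain gene of smooth muscle (0.052), Trim47 (0.064) and the lamin gene Lmna (0.066). Csrp2 had 115 to 156 CPM in mutants and 96.0 to 110 CPM in wild type. Mmp28, Hid1, Mn1 and Lmna were not called. The calls of Sbk1, Csrp2 and Trim47 were lost in 7, 6 and 6 of the 8 fits with 1 library left out. That of Acsl1 was lost in 2. Likeness here is that of 8 libraries in which each gene shares the depth and pool of the others, and the distance includes the step between the groups, on which Ntn1 and Unc5b were chosen.

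The differences of the 6 members were stable in size for Ntn1 and least so for Unc5a. Over the 8 fits with 1 library left out Ntn1 stayed between −0.41 and −0.34 and was called each time. Ntn4 ranged from 0.26 to 0.35, Neo1 from 0.09 to 0.12, Unc5c from 0.00 to 0.15 and Unc5a from −0.52 to 0.23. Without mutant replicate 2, the library with the lowest Unc5a level, the Unc5a difference was 0.23 instead of −0.19.

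**Figure D5:**
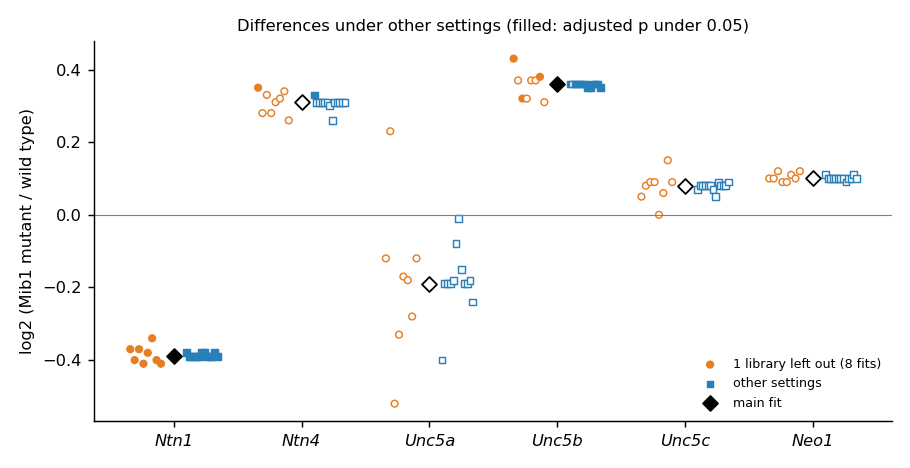
Log2 of mutant over wild type (y axis) for each member in the main fit (diamond), in the 8 fits with 1 library left out (circles) and under the other settings (squares), filled where the adjusted p was under 0.05. Ntn1 is filled throughout, Unc5b in part, and Unc5a crosses 0.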

How the data were processed

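The 8 libraries are polyadenylated RNA of E14.5 ventricles read from 1 end. Per the submitters' processing notes, cutadapt 1.2.1, RSEM 1.16, Bowtie2 0.12.7 (version as named), limma and edgeR were used and the build was mm9. The deposited values are a score: per the values themselves, log2 CPM with a prior of 0.5 counts, multiplied by a constant per library so that each column sums to 1000000. Division by that constant (15.9683 to 16.0735) gave log2 CPM, from which 100% of the counts were recovered as whole numbers within 0.001. CPM are these counts per 1000000 of the authors' normalized library size.

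Symbols were matched by Ensembl identifier to GENCODE M21 for 13428 of 13869 genes. The test was that of limma 3.58.1 under R 4.3.3 (eBayes with a trend, genotype as the only term) on log2 CPM for 13740 genes with a mean of at least 0. The pipeline was tested on simulated counts with the same spread in both groups, which does not cover a spread that differs between groups. Members and lists were chosen with earlier results of these data known. Named are Mib1, the members, called genes of each list or its gene of smallest p, and the 5 nearest profiles (mean of at least 5 CPM) of Ntn1 and Unc5b; other genes were named after their values were seen. Alternatives covered the pseudocount, filter, scaling, variance model, threshold, replicate block and each library left out.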

Additional observations from a re-analysis of the deposited data

Results flagged for a closer look

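The Unc5b level of wild-type replicate 4 was 169 CPM from 1380 counts, against 191 to 194 CPM in the other wild-type libraries. Its gap was 0.889 of the range of the group, above the 95% critical value of Dixon's ratio for 4 samples. It was the 1 case among 88 groups checked for 44 genes, where chance gives about 1 in 20. Without this library the Unc5b difference was 0.31 on the log2 scale and was not called.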

How the results depend on the processing

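Ntn1 kept its direction and its call in all 8 fits with a library left out and under the 13 other settings, at −0.41 to −0.34. Unc5b kept its direction, at 0.31 to 0.43 with a library left out, but was not called with eBayes without a trend (0.36). Its call was lost without mutant replicate 2 (0.37) or 4 (0.32), or without wild-type replicate 1 (0.37), 2 (0.37) or 4 (0.31). Ntn4 was called with array weights (0.33) and in 1 of the 8 fits, at 0.26 to 0.35. Unc5a ranged from −0.52 to 0.23 and turned positive without mutant replicate 2 (0.23), and Unc5c from 0.00 to 0.15, passing just below 0 without wild-type replicate 1 (−0.00). The causes were not tested. Of all genes 308 were called, 490 with array weights, 179 with eBayes without a trend, 119 at a threshold of 0.01, 551 at 0.1, and 146 to 477 with a library left out. Of the pathway lists 4 genes were called, 2 at 0.01, and 2 to 5 with a library left out (2 without mutant replicate 2 or wild-type replicate 2). The Ntn1 over Unc5b difference stayed between −0.80 and −0.69. With the longest transcript, the level over 8 libraries was 7.74 CPM per kilobase for Ntn4 (13.4 with the median length), 0.640 for Unc5a, 36.4 for Unc5b (44.9), 1.06 for Unc5c (2.63) and 20.8 for Neo1 (28.4). Libraries sharing a replicate number correlated at −0.04 to 0.10 after removal of the group means, with 0 mutant libraries and 1 wild-type library closest to its own number, and were not treated as pairs. With the replicate block 240 genes were called, Ntn1 (−0.39) and Unc5b (0.36) among them, and of the genes named from the pathway Adgrl3 was not (−0.55, limma adjusted p = 0.0508). Counts were fewest for Unc5a, at 7 to 30 per library.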
